A study of Mus musculus with 15 samples.

Results

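Thrombospondins and their main cell-surface receptors were followed as 7 genes, the thrombospondin subunits Thbs1, Thbs2, Thbs3 and Thbs4 and the receptors Cd47, Cd36 and Lrp1. They were taken by gene symbol from both deposited tables of normalized counts, which hold 26835 genes (Lhx6 comparison) and 25714 genes (Mtg8 comparison), and all 7 were found in each. The members were chosen by the normalized counts of Thbs1, which differed between controls and mutants in both tables and between the 2 sets of controls; the others are its relatives and receptors. Those values of Thbs1 are therefore given as a description, with no test, and of the remaining 6 genes the 3 with enough reads (Thbs3, Cd47 and Lrp1) were read from the fit over all genes.

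Thrombospondins are secreted multimeric glycoproteins of the extracellular matrix that act as signals between cells rather than as scaffold. Thrombospondin-1 and thrombospondin-2 form trimers that carry repeats able to bind CD36, and thrombospondin-1 can also activate latent TGF-beta, whereas thrombospondin-3 and thrombospondin-4 form pentamers without those repeats. CD47, also called integrin-associated protein, binds the carboxy-terminal end of thrombospondins, CD36 is a scavenger receptor, and LRP1 is a large endocytic receptor that takes up thrombospondins from the cell surface together with calreticulin. In the brain, thrombospondins released by immature astrocytes are known for promoting the formation of synapses.

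The 15 libraries were made from YFP-positive cells sorted from the cortex of single mouse embryos at embryonic day 14.5, on a mixed C57BL6/CBA background. Every embryo carried Nkx2-1-Cre and R26R-YFP fl/fl, so that YFP marks cells derived from the medial ganglionic eminence (MGE), which become somatostatin and parvalbumin interneurons. The Lhx6 comparison had 4 control embryos (Lhx6+/+) and 5 mutant embryos (Lhx6-/-), and the Mtg8 comparison had 3 control embryos (Mtg8+/+) and 3 embryos labelled as mutant (Mtg8-/-). The mutations were present in the whole embryo and not only in the sorted cells, and the methods describe mutants as littermates of controls.

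Depth was 12218422 to 22053032 reads per library. Lhx6 fell from 7247 ± 1093 normalized counts (SD, n = 4) in controls to 331 ± 99.7 (SD, n = 5) in Lhx6 mutants. Runx1t1, the gene of MTG8, was at 8891 ± 1219 (SD, n = 3) in Mtg8 controls and at 12845 ± 944 (SD, n = 3) in those labelled mutant, higher in 3 of 3. Its log2 fold change there was 0.54 and was not called (limma adjusted p = 0.859). In Lhx6 mutants Runx1t1 was higher as well, at 17972 ± 5387 (SD, n = 5) against 7449 ± 1072 (SD, n = 4) in their controls, without overlap (limma adjusted p = 0.00401). The 3 Mtg8 libraries are therefore called by their label throughout. The Mtg8 mutant allele is a LacZ knock-in, and which part of the transcript it leaves was not analysed. MGE interneuron markers were high in all 4 groups, at 1275 to 3160 RPM summed over 11 genes (reads of a gene per 1000000 counted reads of its library), whereas endothelial markers summed to 1.42 to 16.6 RPM. Pyramidal lineage markers were at 247 to 1193 RPM and radial glia markers at 308 to 965, and blood markers, at 69.3 to 2590, reached into the range of the MGE markers. Library names follow 2 styles, with or without a leading date, whose meaning is not given. In the Lhx6 comparison the undated libraries are the 4 controls and mutant 6, and the dated ones are mutants 1, 2, 3 and 5, so that name style and genotype overlap almost fully.

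Among the ligands, Thbs1 carried most of the thrombospondin signal in every library and, among the members with a mean of at least 10 normalized counts, differed most between groups. Thbs1 (ENSMUSG00000040152.8) lies on the plus strand at chr2:118111876-118127133 of GRCm38, with 22 merged exons and 6073 exonic bases, none of them shared with an exon of another gene in the tables. In the Lhx6 table, controls 1 to 4 held 1978, 1759, 2276 and 1947 normalized counts, where a normalized count is the number of reads divided by the size factor of the library. Lhx6 mutants 1, 2, 3, 5 and 6 held 320, 320, 271, 291 and 208 normalized counts. Every mutant was below every control, and the lowest of all, mutant 6, was the mutant that shares the undated name style of the controls.

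The mean normalized count of Thbs1 was 1990 ± 214 (SD, n = 4) for Lhx6 controls and 282 ± 46.4 (SD, n = 5) for mutants, or 14.2% of the control level. This is a log2 fold change of -2.83 with a standard error of 0.16 (mutant minus control, on the scale of log2(normalized count + 1)). Across the table, groups were separated in the lower direction for 3.03% of the 16727 genes tested. Controls held 8791 Thbs1 reads in all and mutants 1364, so that the count of reads did not limit the measurement. Among the libraries that share a name code (controls 1 and 2 and mutant 6) the log2 difference was -3.16, and within undated names it was -3.25.

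In the Mtg8 table, controls 1, 2 and 4 held 4958, 5391 and 5988 normalized counts of Thbs1. The libraries labelled Mtg8 mutant 2, 3 and 4 held 3413, 2072 and 2676. Here too all 3 were below all 3 controls. In RPM, which can be set across the tables, they were at 115 to 185 and the Lhx6 mutants at 13.7 to 20.7. Their controls differed too, at 275 to 311 RPM for Mtg8 and 118 to 150 for Lhx6. Mean normalized counts in the Mtg8 table were 5446 ± 517 (SD, n = 3) and 2720 ± 672 (SD, n = 3), or 49.95% of control. This is a log2 fold change of -1.03 with a standard error of 0.21. Across this table, 5.52% of the 16132 genes tested were separated in the lower direction.

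Mtg8 controls 1 and 2 and the library labelled Mtg8 mutant 2 share a name code, and the log2 difference of Thbs1 among them was -0.60. Within undated names it was -1.35, between 1 control and 2 libraries labelled mutant. The smaller value came from the library labelled Mtg8 mutant 2, which had the highest Thbs1 of its group. Leaving out any 1 library of the Mtg8 table gave log2 fold changes between -1.20 and -0.85.

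**Figure D1:**
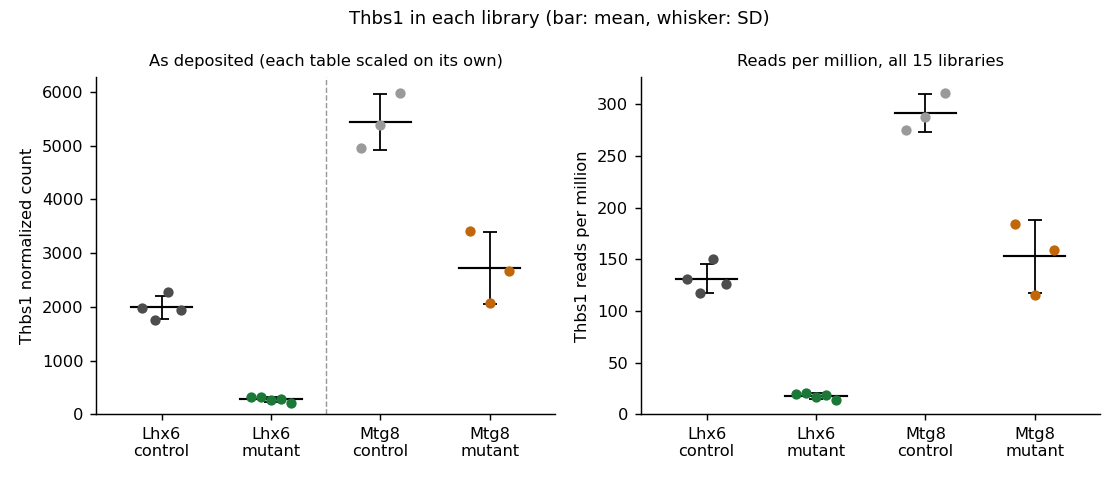
Thbs1 in each of the 15 libraries, as deposited normalized counts (left, the dashed line separates the 2 tables, which were scaled separately) and as RPM (right, reads per 1000000); points are libraries, horizontal bars the group means and whiskers the SD. Lhx6 mutants lie between 208 and 320 normalized counts below controls at 1759 to 2276, and the libraries labelled Mtg8 mutant lie between 2072 and 3413 below controls at 4958 to 5988.

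The summed level of MGE interneuron markers was separated between groups in the same direction as Thbs1. These markers summed to 38128 to 44557 normalized counts in Lhx6 controls and to 19294 to 32684 in Lhx6 mutants. The sums were 54083 to 58264 in Mtg8 controls and 35280 to 45691 in the libraries labelled Mtg8 mutant, without overlap in either table. Without Lhx6 and Sst, the other 9 genes overlapped, at 21185 to 25262 in Lhx6 controls and 17774 to 31080 in Lhx6 mutants. For Mtg8 they were at 30273 to 30859 (mean 30473) in controls and at 21329 to 31623 (mean 25164) in the libraries labelled mutant. Only the highest of the latter was not below the controls. Dlx2, among these 9 genes, ran from 432 to 5616 in the libraries labelled mutant and from 738 to 842 in controls. Of all 11 genes, 4 were lower in Lhx6 mutants by limma's test (Lhx6 and Sst among them) and 1 was higher (Dlx5), against 1.71% of all genes in either direction. For Mtg8, limma called 0 of 11, with 4 at an unadjusted p under 0.05, a level that 5.49% of all genes tested in that table reached. Fewer Thbs1-expressing cells and less Thbs1 RNA per cell cannot be told apart in bulk libraries, and the part of cell composition in the result was not tested.

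Some markers of other cell types in the developing cortex also shifted. Markers of interneurons from the caudal ganglionic eminence summed to 1532 to 1912 normalized counts in Lhx6 controls and to 2272 to 3022 in Lhx6 mutants. Of these 6 genes limma called 1 higher (Adarb2) and 2 lower (Htr3a and Npas1), where it called 1.03% and 0.682% of all genes. In the Mtg8 comparison 5 of 6 had estimates above 0, 0 were called, and the sums of 1566 to 1703 in controls and 1703 to 2160 in the libraries labelled mutant met at their edge, whereas in RPM they were separated, at 81.4 to 94.4 and 94.7 to 117. Radial glia markers summed to 5784 to 7156 in Mtg8 controls and to 7423 to 11777 in the libraries labelled mutant, with estimates above 0 for 6 of 7. Pyramidal lineage markers had estimates above 0 for 6 of 6 there, with overlapping sums of 4756 to 11917 and 7356 to 18734. Oligodendrocyte precursor markers had estimates above 0 for 4 of the 4 tested there, with a median log2 fold change of 2.03, and scarce sums that overlapped, at 6.40 to 304 and 51.0 to 526. For Mtg8, limma called 0 genes of these 3 lists, and 0.0% of all genes. Beside 5.49% of all genes, 3 of 7 radial glia and 3 of 6 pyramidal lineage markers were at an unadjusted p under 0.05. So were 2 of the 4 oligodendrocyte precursor markers tested, and 1 of the 6 caudal interneuron markers. The part of all these markers in the Thbs1 result was not tested either.

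Thbs1 is also known from platelets, endothelium and perivascular cells. The sums of the marker lists for endothelium, pericytes with meningeal fibroblasts, and blood overlapped between groups. Endothelial markers summed to 21.3 to 185 normalized counts in Lhx6 controls and to 54.5 to 260 in Lhx6 mutants, and to 42.5 to 239 and 57.8 to 164 in the 2 groups of the Mtg8 table. Markers of pericytes and meningeal fibroblasts summed to 130 to 1015 in Lhx6 controls and to 68.1 to 1118 in Lhx6 mutants. Among these lists blood markers had the widest range in absolute counts, from 4095 to 39198 in Lhx6 controls and from 1070 to 13278 in Lhx6 mutants. They were summed over 5 of the 6 genes listed, since the X-linked Alas2 was not analysed here. Haemoglobin genes made up most of the blood sum, with Hba-a1 at a mean of 7926 normalized counts in Lhx6 controls. The platelet genes Pf4 and Itga2b had means of 10.4 and 13.4 there, so that the blood sum says little about platelets. Pf4 was at 0 to 38.7 in Lhx6 controls and 0 to 77.3 in Lhx6 mutants, and Itga2b at 7.70 to 19.5 and 0 to 23.25. The Mtg8 groups overlapped for the pericyte and blood lists as well.

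The level of Thbs1 also differed between the 2 sets of controls, although both carry the same Cre and reporter alleles and wild-type copies of the gene under study. RPM values can be set side by side across the tables. Lhx6 controls were at 118 to 150 RPM with a mean of 131 ± 13.9 (SD, n = 4). Mtg8 controls were at 275 to 311 with a mean of 291 ± 18.5 (SD, n = 3). The sets did not overlap and differed by 1.15 on the log2 scale, or 2.22-fold. Between these sets 47.1% of the 15629 genes compared did not overlap, and 2.78% were separated upward in Mtg8 controls by at least as large a ratio as Thbs1.

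Size factors computed over all 15 libraries moved this difference to 1.35 (DESeq2) or 1.41 (TMM), and the normalized counts as deposited gave 1.45. The median of all genes moved as well, from -0.18 in RPM to 0.01, 0.08 and 0.12. In order of level, Thbs1 stood at 17.9 ± 2.73 RPM (SD, n = 5) for Lhx6 mutants, followed by Lhx6 controls, by the libraries labelled Mtg8 mutant at 153 ± 35.1 (SD, n = 3) and by Mtg8 controls at the top. The middle neighbours overlapped, since the libraries labelled Mtg8 mutant spanned 115 to 185 RPM and Lhx6 controls lay within that range.

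Markers of some other cell types were separated between the control sets, in the opposite direction. Pyramidal lineage markers summed to 812 to 1193 RPM in Lhx6 controls and to 247 to 635 in Mtg8 controls, and radial glia markers to 566 to 700 and to 308 to 372. Markers of interneurons from the caudal ganglionic eminence were at 98.9 to 126 and at 81.4 to 94.4 RPM. MGE interneuron markers overlapped, at 2552 to 2947 and 2883 to 3160 RPM. The lists for astrocytes, blood, endothelium, microglia, oligodendrocyte precursors, and pericytes with meningeal fibroblasts overlapped as well. Of all genes compared, 47.1% did not overlap between these sets. The part of these differences in the Thbs1 level was not tested.

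The remaining thrombospondins were scarce. Thbs3 (ENSMUSG00000028047.11, chr3:89215180-89226837, plus strand) is the other subunit detected in every library, at 96.6 to 124 normalized counts in Lhx6 controls and 78.5 to 180 in Lhx6 mutants, so that the mutants spanned the controls. Its log2 fold change was 0.04 with a standard error of 0.26 (limma adjusted p = 0.953) and a 95% interval of -0.52 to 0.60. In the Mtg8 table, controls were at 88.5 to 129 and the libraries labelled mutant at 73.5 to 157, with a log2 fold change of -0.12, a standard error of 0.33 (limma adjusted p = 0.966) and a 95% interval of -0.85 to 0.60. The sign changed in both tables when single libraries were left out, and in the Lhx6 table also with equal totals as the scaling. Some 6.59% of the exonic length of Thbs3 overlaps exons of Mtx1 on the other strand, and the library kit does not mark strand, so that reads there cannot be assigned to either gene.

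Thbs2 (ENSMUSG00000023885.9, chr17:14665500-14694235, minus strand), the closest relative of Thbs1, fell under the minimum mean of 10 normalized counts in both tables and was not tested. Lhx6 controls 1 to 4 held 10, 0, 4 and 0 reads, and Lhx6 mutants 1, 2, 3, 5 and 6 held 0, 0, 21, 17 and 10. Mtg8 controls held 0, 0 and 13 reads and the libraries labelled Mtg8 mutant held 2, 7 and 0. Libraries without a read stood beside libraries with several in all 4 groups, and a count of 0 allows up to 3 reads. Thbs4 (ENSMUSG00000021702.7, chr13:92751590-92794818, minus strand) had at most 4 reads in any library, and 0 reads in 10 of 15.

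Set on a common scale per length of exon, Thbs1 made up 93.4% ± 0.51 (SD, n = 4) of the summed level of the 4 thrombospondins in Lhx6 controls and 97.3% ± 0.52 (SD, n = 3) in Mtg8 controls. Its share was 64.7% ± 5.91 (SD, n = 5) in Lhx6 mutants, where Thbs3 reached 33.0% ± 6.40 (SD, n = 5). Libraries labelled Mtg8 mutant had a Thbs1 share of 95.04% ± 1.78 (SD, n = 3). The larger share of Thbs3 in Lhx6 mutants went with a mean level of Thbs3 of 22.6 normalized counts per kb in controls and 24.1 in mutants. The summed level itself went from 351 to 72.0 normalized counts per kb between Lhx6 controls and mutants, and from 921 to 471 in the Mtg8 table.

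**Figure D2:**
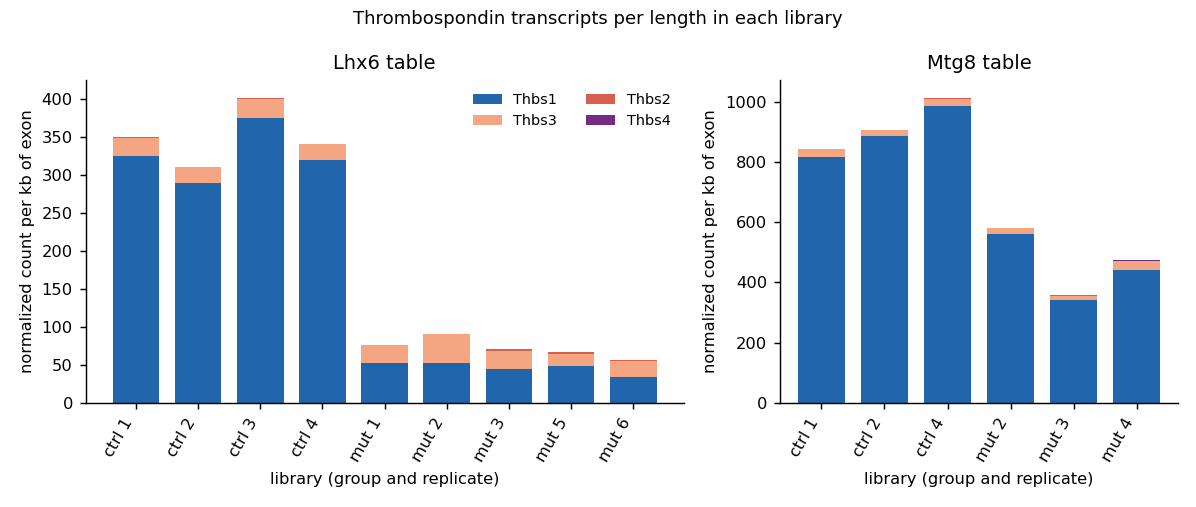
Level of each thrombospondin in each library, as normalized counts per kb of exon stacked over the 4 subunits, with 1 bar per library and 1 panel per table (the y axes differ). Thbs1 (blue) makes up most of every bar, the bars of Lhx6 mutants are at 56.8 to 90.0 per kb against 311 to 402 in controls, and Thbs3 (light orange) is at 15.2 to 37.2 per kb over the 15 libraries.

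Of the receptors, Cd47 and Lrp1 were expressed in every library and Cd36 was close to absent. By the test over all genes, 0 of the 3 other members that could be tested (Thbs3, Cd47 and Lrp1) were called in the Lhx6 table, where limma called 1.71% of genes at an adjusted p under 0.05. The count was 0 of 3 for Mtg8 as well, where limma called 0.0% of genes. At an unadjusted p under 0.05 the number was 0 of 3 in each table, beside 12.7% of all genes for Lhx6 and 5.49% for Mtg8. On the recovered reads edgeR and DESeq2 also called 0 of 3, where they called 1.67% and 4.52% of all genes for Lhx6 and 0.0062% and 0.192% for Mtg8. The intervals given below show which sizes of change these data still allow.

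Cd47 (ENSMUSG00000055447.19, chr16:49800533-49915010, plus strand) was the receptor with the highest level per length of exon in all 4 groups. Lhx6 controls 1 to 4 held 1995, 2413, 2354 and 2280 normalized counts, and Lhx6 mutants 1, 2, 3, 5 and 6 held 2699, 2559, 2312, 2711 and 1855. The groups overlapped, with mutant 6 the lowest library of the table and mutants 1, 2 and 5 above every control. The log2 fold change was 0.09 with a standard error of 0.14 (limma adjusted p = 0.791) and a 95% interval of -0.21 to 0.39. It turned to -0.28 with name style as a covariate, a fit that compares mutant 6 with the 4 controls.

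In the Mtg8 table, controls held 1463, 1720 and 1701 normalized counts of Cd47 and the libraries labelled Mtg8 mutant held 1384, 1763 and 1641. These 2 groups lay in nearly the same range. The log2 fold change was -0.03 with a standard error of 0.19 (limma adjusted p = 0.984) and a 95% interval of -0.44 to 0.38.

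Lrp1 (ENSMUSG00000040249.15, chr10:127538161-127621148, minus strand, 17717 exonic bases) was the member besides Thbs1 whose groups did not overlap in the Mtg8 table. Mtg8 controls 1, 2 and 4 held 2127, 2292 and 2356 normalized counts, and the libraries labelled Mtg8 mutant 2, 3 and 4 held 2006, 1836 and 1791. The difference did not pass the test, with a log2 fold change of -0.27, a standard error of 0.17 (limma adjusted p = 0.867) and a 95% interval of -0.65 to 0.11. Groups were separated in the lower direction for 5.52% of the genes tested in this table.

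In the Lhx6 table the estimate for Lrp1 had the other sign. Controls 1 to 4 held 1054, 861, 1215 and 1032 normalized counts and mutants 1, 2, 3, 5 and 6 held 1715, 906, 1382, 1160 and 1102. Mutants 1 and 3 were above every control and the rest lay within the control range. The log2 fold change was 0.24 with a standard error of 0.19 (limma adjusted p = 0.599) and a 95% interval of -0.16 to 0.65. Whether the change of Lrp1 differs between the 2 mutations was not tested.

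Both receptors differed between the control sets, in opposite directions. Lrp1 was at 57.7 to 80.3 RPM in Lhx6 controls and at 118 to 122 in Mtg8 controls, 0.82 higher on the log2 scale (1.01, 1.08 and 1.12 under the other scalings), and 6.53% of the 15629 genes compared were separated upward by at least its ratio. Cd47 was at 132 to 162 in Lhx6 controls and at 81.1 to 91.7 in Mtg8 controls, a log2 difference of -0.78, which became -0.58, -0.51 and -0.47 under the other scalings. In RPM, 18.0% of genes were separated downward by at least as large a ratio. Thbs3 overlapped between the control sets, at 6.24 to 8.22 and 4.72 to 7.13 RPM.

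Cd36 (ENSMUSG00000002944.15, chr5:17781690-17888801, minus strand), which outside the brain marks macrophages, platelets and small vessels, was under the minimum mean and was not tested. Lhx6 controls 1 to 4 held 9, 26, 12 and 0 reads and Lhx6 mutants 1, 2, 3, 5 and 6 held 0, 0, 18, 0 and 17. No library of the Mtg8 table held more than 5 reads. Both Lhx6 groups thus held libraries with reads and libraries without.

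**Figure D3:**
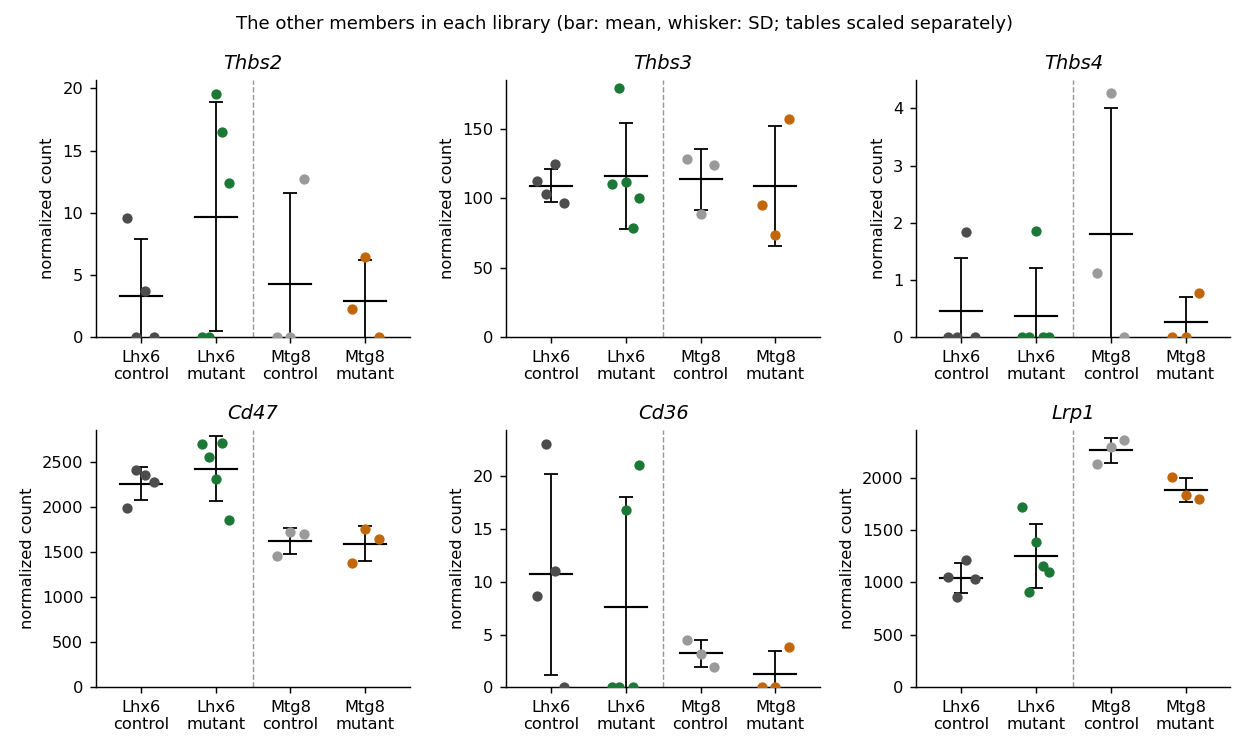
Normalized counts of the other 6 members in each library, with 1 panel per gene and its own y axis; points are libraries, horizontal bars the group means, whiskers the SD, and the dashed line separates the 2 tables. Groups overlap within each table for Thbs3 and Cd47, and Lrp1 is at 1791 to 2006 in the libraries labelled Mtg8 mutant against 2127 to 2356 in controls, whereas Thbs2, Thbs4 and Cd36 reach at most 23.04 normalized counts.

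Per length of exon, the order of the members depended on Thbs1. In Lhx6 controls Cd47 was at 360 ± 29.5 normalized counts per kb (SD, n = 4), Thbs1 at 328 ± 35.2, Lrp1 at 58.7 ± 8.17 and Thbs3 at 22.6 ± 2.51, and the ranges of Cd47 and Thbs1 overlapped. In Lhx6 mutants Thbs1, at 46.4 ± 7.64 per kb (SD, n = 5), stood under Lrp1 at 70.7 ± 17.4, with ranges that just overlapped. In Mtg8 controls Thbs1 was first at 897 ± 85.2 per kb (SD, n = 3), ahead of Cd47 at 259 ± 22.8 and Lrp1 at 127 ± 6.67. It was still first in the libraries labelled Mtg8 mutant, at 448 ± 111 per kb (SD, n = 3) against 254 ± 30.8 for Cd47, and these ranges did not overlap.

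Further genes through which thrombospondins act were taken from a list of 37, drawn up from textbook roles with results of these data known. Of the 33 that could be tested for Lhx6, limma called 1 lower and 1 higher, against 0.682% and 1.03% of all genes, and 6 were at an unadjusted p under 0.05 beside 12.7%. The median log2 fold change of the list was -0.15, beside -0.04 over all genes tested. For Mtg8, limma called 0 of the 34 that could be tested, with 6 at an unadjusted p under 0.05, beside 5.49% of all genes. There edgeR and DESeq2 also called 0 of the list, and its median was 0.09 beside -0.01 over all genes.

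The gene called higher was Vldlr, a receptor for reelin that also binds thrombospondin-1. It lay between 892 and 1070 normalized counts in Lhx6 controls and between 1946 and 3592 in Lhx6 mutants, with a log2 fold change of 1.47 and a standard error of 0.17 (limma adjusted p = 4.88e-04), higher in 5 of 5 mutants. Vldlr was at 673 to 983 in Mtg8 controls and at 727 to 766 in the libraries labelled Mtg8 mutant, a log2 fold change of -0.17 (limma adjusted p = 0.929). Lrp8, the related receptor that shares its ligands, had a log2 fold change of 0.18 in the Lhx6 table (limma adjusted p = 0.674), and the ligand Reln and the adaptor Dab1 had 0.20 and 0.26, with 0 of the 2 called.

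Tgfb3, a TGF-beta whose latent form thrombospondin-1 can activate, was the gene called lower. It was at 189 to 356 normalized counts in Lhx6 controls and at 14.8 to 72.7 in Lhx6 mutants, with a log2 fold change of -3.00 and a standard error of 0.42 (limma adjusted p = 0.00182), lower in 5 of 5 mutants. Tgfb3 was at 898 to 1324 in Mtg8 controls and at 544 to 824 in the libraries labelled mutant. Its log2 fold change there was -0.68 with a standard error of 0.23 (limma adjusted p = 0.859), lower in 3 of 3. Of all genes tested for Mtg8, 5.52% were separated in the lower direction. With name style as a covariate for Lhx6, 0 of the 33 list genes were called.

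The other receptors of the list, among them integrin subunits, syndecans and Cacna2d1, the calcium channel subunit known as the neuronal thrombospondin receptor in synapse formation, gave no calls in either table. Cacna2d1 was at 636 to 699 normalized counts in Lhx6 controls and at 283 to 674 in Lhx6 mutants, a log2 fold change of -0.45 (limma adjusted p = 0.459). The syndecan gene Sdc4 had 0.85 (limma adjusted p = 0.239) and the integrin subunit genes Itga3 and Itgav had -1.33 and 0.46 in the Lhx6 table. Ltbp3, which encodes a protein that binds latent TGF-beta, had -0.79 there (limma adjusted p = 0.234).

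In the Mtg8 table the largest estimates of the list were those of Ltbp1 (1.13), Sparcl1 (0.86) and Sparc (0.83) on the high side and of Itgb3 (-0.94), Tgfb3 and Sirpa (-0.48), the gene of the CD47 ligand SIRPalpha, on the low side. None of these 6 passed, with limma adjusted p values of 0.859 to 0.875. Among these high estimates only Sparcl1 had groups that did not overlap. It was at 89.4 to 135 normalized counts in controls and 176 to 250 in the libraries labelled mutant. Itgb1, with a smaller estimate of 0.55 (limma adjusted p = 0.859), was also separated upward, at 439 to 637 and 684 to 1063. The share of all genes separated in the higher direction is not given here. The separation of Sparcl1 and Itgb1 is therefore a description only. In the lower direction, 5.52% of the genes tested for Mtg8 were separated. The subunit gene Comp, the fifth thrombospondin, was not analysed here.

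**Figure D4:**
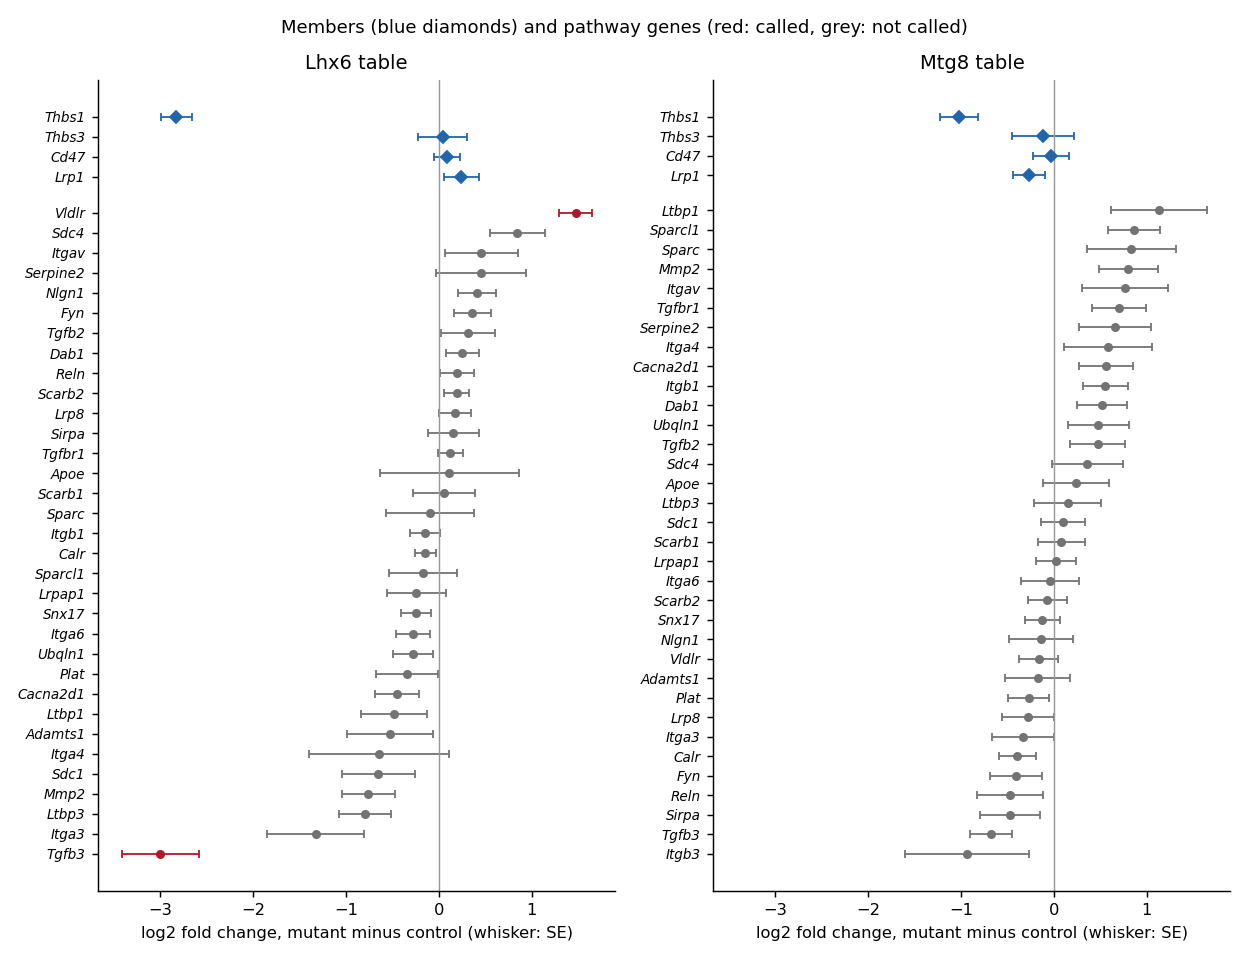
Log2 fold change (mutant minus control) of the 4 members that passed the minimum mean (blue diamonds) and of the tested genes of the pathway list (circles, red where limma's adjusted p was under 0.05), with whiskers for the standard error and 1 panel per table. Thbs1 is at -2.83 and -1.03, Thbs3, Cd47 and Lrp1 lie between -0.27 and 0.24, and of the list Vldlr and Tgfb3 are red in the Lhx6 panel.

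The genes whose pattern was most like that of Thbs1 were Sst, Syndig1, Nxph2, Sema3a and Tgfb3. Likeness was measured over all 15 libraries as the root mean square difference of log2 values, each centred on the control mean of its table, among 15628 genes. The difference from Thbs1 was 0.35 for Sst, the gene of somatostatin, the peptide that marks a major class of MGE interneurons, and 0.44 for Syndig1. It was 0.46 for Nxph2, 0.52 for Sema3a, a secreted guidance cue, and 0.55 for Tgfb3. These genes were selected for following Thbs1, so their values are a description.

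Sst went from 11499 to 1388 normalized counts between Lhx6 controls and mutants, a log2 fold change of -3.06, and from 16695 to 6615 in the Mtg8 table, a log2 fold change of -1.34. Among the libraries labelled Mtg8 mutant the order of Sst was the reverse of that of Thbs1, with Sst at 5683, 8048 and 6115 normalized counts in mutants 2, 3 and 4, where Thbs1 was at 3413, 2072 and 2676. Syndig1, Nxph2 and Sema3a had log2 fold changes of -3.08, -2.92 and -2.45 in the Lhx6 table. For Mtg8 theirs were -0.36, -0.56 and -0.60, smaller in size than the -1.03 of Thbs1.

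**Figure D5:**
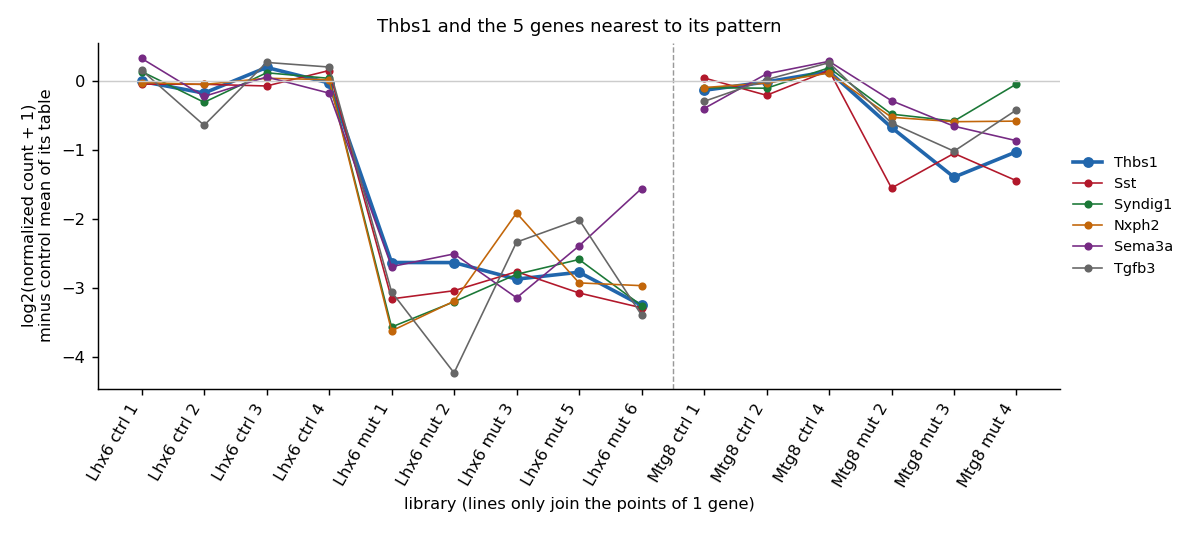
Thbs1 (thick blue line) and the 5 genes nearest to its pattern in each library, as log2(normalized count + 1) minus the control mean of the same table; the dashed line separates the 2 tables and lines only join the points of 1 gene. All 6 genes lie between -0.64 and 0.33 in controls and between -4.22 and -1.55 in Lhx6 mutants. Sst and Thbs1 lie lowest in the libraries labelled Mtg8 mutant.

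Around Thbs1 on chromosome 2, the tables hold 10 further genes within 500 kb on either side, a look that was added after the values of Thbs1 were seen. Both tables allowed tests of 8 of them, and limma called 1 for Lhx6 and 0 for Mtg8, beside 1.71% and 0.0% of all genes. The gene called, Gm13986, lies on the minus strand and begins 0.674 kb before the start of Thbs1. It had a mean of 31.2 normalized counts in Lhx6 controls and a log2 fold change of -3.75 (limma adjusted p = 0.0337), and -1.26 in the Mtg8 table (limma adjusted p = 0.859). Fsip1, 3.29 kb beyond the end of Thbs1, had -1.75 (limma adjusted p = 0.0989) and -0.32, and the other 6 tested genes lay between -2.19 and 0.87 in the Lhx6 table.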

How the data were processed

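RNA was measured by low-input RNA-seq in 15 libraries of YFP-positive cells, whose titles gave the groups and replicate numbers. The authors processed single reads of 75 bases by trimming (fastp 0.20.1), alignment to GRCm38 (STAR 2.7b) and counting per gene (featureCounts 1.6.4). Sex-linked genes were removed by the authors, because the sexes were unevenly spread over control and mutant samples. The part of sex in the results was not tested. A signal for each gene and library, its read count divided by a DESeq2 size factor, was deposited in 1 table per comparison. Each table was scaled on its own, so levels were set across tables only in RPM or with size factors over all 15 libraries. The deposited tables also hold the authors' own fold changes and p-values, which were not used.

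The reads behind the deposited values were recovered, and 100% of them came out whole (tolerance 0.01). Depth is high for Thbs1, Thbs3, Cd47 and Lrp1, whereas Thbs2, Thbs4 and Cd36 rest on a few reads, where a library with 0 reads allows up to 3. That floor covers counting error only, since reads carry no molecular identifiers. Embryos limit the precision, and 1 embryo gave 1 library.

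Each table was tested alone with limma 3.58.1 in R 4.3.3 (trended prior, two-sided). Values were log2(normalized count + 1), genes needed a minimum mean of 10, and calls were made with Benjamini-Hochberg adjustment over all genes tested and a threshold of 0.05. Fold changes on this scale understate those of low genes. Count tests with recovered reads (edgeR 4.0.16, DESeq2 1.42.0) were alternatives, beside other pseudocounts, filters and scalings, a replicate block, name style as a covariate and each library left out in turn. The fits were also run on simulated data, on which no result given here rests.

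The members, the pathway list and the marker lists were chosen with earlier results of these data known. Named genes were all members, the pathway genes called and the 3 lowest and 3 highest in each table, the 5 genes nearest to Thbs1, the targeted genes and markers that moved with a member. Cacna2d1, Lrp8, Reln, Dab1, Itgb1, Dlx2 and the neighbours of Thbs1 fall outside this rule and were chosen after their values were seen. Exon positions come from the deposited tables. Replicate numbers of the labels were not taken as pairs.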

Additional observations from a re-analysis of the deposited data

Results flagged for a closer look

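The normalized count of Thbs4 was 1.84 in Lhx6 control 3 and 1.86 in Lhx6 mutant 3, and 0 in all other libraries of these groups, so that each stood apart from the rest of its group. Each value corresponds to 2 reads, which is under the 3 reads that a count of 0 allows. In all, 14 sets of values (1 member in 1 group) were screened. Where all other libraries of a group hold 0 reads, a single library with reads is marked by construction.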

How the results depend on the processing

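Thbs1 was lower in mutants under every setting tried. Its log2 fold change in the Lhx6 table was -3.25 with name style as a covariate, -3.16 among libraries with 1 shared name code and -2.88 to -2.72 without single libraries, and for Mtg8 it was -0.60 with 1 shared name code. The higher level of Thbs1 in Mtg8 controls (1.15) became 1.35, 1.41 and 1.45 with DESeq2 factors, TMM factors and the deposited values, and lay at 1.10 to 1.22 without single libraries. Thbs3, Cd47 and Lrp1 were called under no setting. The sign of Thbs3 in the Lhx6 table turned to -0.015 with equal totals, -0.11 with name style and -0.10 with 1 name code, and ran from -0.13 to 0.17 without single libraries. In the Mtg8 table it ran from -0.42 to 0.12 without single libraries. Cd47 turned to -0.28 with name style and -0.24 with 1 name code for Lhx6, and to 0.040 with equal totals for Mtg8, where it ran from -0.11 to 0.067 without single libraries. Lrp1 kept its sign throughout, at 0.12 (without mutant 1) to 0.35 without single libraries and 0.093 with name style for Lhx6, and at -0.14 with 1 name code for Mtg8. The causes were not tested.

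Over all genes, limma called 286 in the Lhx6 table, DESeq2 756, and the fit with name style 57, with 0 instead of 2 of the pathway list. Leaving out single libraries gave 159 (without control 1) to 491 (without mutant 6). In the Mtg8 table limma called 0 (886 at an unadjusted p under 0.05), 1 with no filter, 2 with a minimum mean of 50 and 0 to 86 without single libraries, with 86 reached without the library labelled Mtg8 mutant 2. There edgeR called 1 and DESeq2 31. With a replicate block 86 genes were called for Lhx6 and 100 for Mtg8, and Thbs3 turned to 0.22 in the latter fit, which kept 1 residual degree of freedom. The deviations of same-numbered embryos correlated at -0.15, 0.0018 and 0.072 (Lhx6) and at 0.14 and 0.16 (Mtg8). The numbers were not taken as pairs, since those of Lhx6 were not all above 0.1 and Mtg8 has only 2.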
